A study of Homo sapiens with 6 samples.

Results

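The desmosome genes examined here were the 10 genes for desmosomal cadherins, plakophilins, plakoglobin and desmoplakin (DSP, JUP, PKP1, PKP2, PKP3, PKP4, DSG2, DSG3, DSC2 and DSC3), chosen by symbol from the 60240 genes of the deposited count table. All 10 were found. Expression was measured by RNA-seq of polyA RNA in HCT116 cells, a human colorectal carcinoma line, with 3 libraries from wild-type (WT) cells and 3 libraries from LSD1 knockout (LSD1 KO) cells. LSD1, encoded by KDM1A, is a histone demethylase. The knockout was made with CRISPR/Cas9 and a guide to exon 1 of LSD1, after which individual clones were expanded, and the sources used here do not say how many clones the 3 LSD1 KO libraries represent. The methods describe biological replicates for the study's experiments in general. For these libraries the labels give only replicate numbers and name no separate cultures, so p-values measure the spread between these libraries, which may be technical.

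Desmosomes are button-like junctions that tie the keratin filaments of neighbouring epithelial cells together. Desmogleins and desmocollins are cadherins that bridge the gap between the cells. Inside the cell, plakoglobin and the plakophilins, which are armadillo-repeat proteins, gather on the cadherin tails and bind desmoplakin, which anchors the keratin filaments. The intestinal epithelium uses mainly DSG2 and DSC2 among the desmosomal cadherins, whereas DSG3 and PKP1 are best known from stratified epithelia such as skin.

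Total counts ranged from 25379279 to 29186963 per library. KDM1A was at 231, 224 and 214 CPM (counts scaled to the effective library size) in WT replicates 1, 2 and 3, and at 29.9, 27.6 and 27.8 CPM in the LSD1 KO replicates, so the libraries matched their genotype labels. Of the 8 epithelial markers examined, CDX1 had no counts, VIL1 and LGALS4 stayed under 1 CPM in every library, and the summed level was 2032 to 3799 CPM in WT and 2407 to 3141 CPM in LSD1 KO libraries. Of the 6 fibroblast markers, LUM had no counts and COL1A1 was the only marker above 1 CPM, and the list summed to 20.5 to 24.2 CPM in WT and 30.3 to 34.4 CPM in LSD1 KO libraries. The markers found for endothelium (VWF and CDH5) summed to at most 1.36 CPM in any library, as did those for melanocyte or neural cells in LSD1 KO libraries (at most 1.62 CPM in WT). Of the immune markers, CD3E had no counts, PTPRC stayed under 1 CPM, and the list summed to 16.1 to 19.7 CPM in WT and 22.2 to 32.7 CPM in LSD1 KO libraries, nearly all from CD68. In bulk RNA, fewer cells of a type and less RNA per cell cannot be told apart.

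Of the 10 desmosome genes, 8 were expressed well enough to be tested, and PKP1 and DSG3 were not. None of the 8 differed between LSD1 KO and WT cells at a q value under 0.1 (edgeR quasi-likelihood test), a threshold that 0.00566% of the 17672 genes tested passed. This share is 1 gene, KDM1A itself (q value 0.00045, edgeR). With no other gene called, this fit cannot show that the desmosome genes were unchanged. At an unadjusted p under 0.05 there was 1 desmosome gene, PKP3, beside 552 genes in all (3.12%), and DESeq2 called 0 desmosome genes. The desmosome genes had 4 positive and 4 negative log2 fold changes, with a median of 0.0058 against 0.0008 over all genes tested. The plot of CPM by library shows PKP3 as the only desmosome gene tested whose LSD1 KO libraries all lay below its WT libraries.

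**Figure D1:**
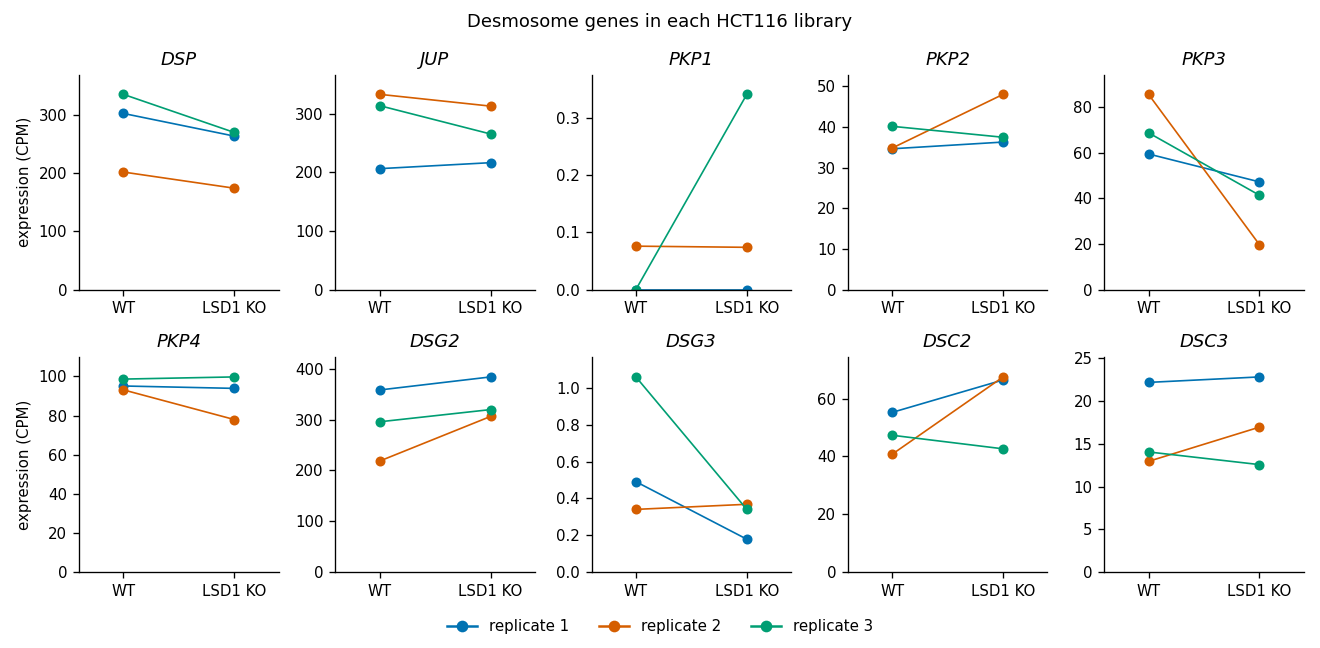
Expression (CPM, linear axes from 0) of the 10 desmosome genes in the WT and LSD1 KO libraries of HCT116 cells, with a line joining libraries of the same replicate number. PKP3 was at 59.5 to 85.7 CPM in WT and 19.7 to 47.3 CPM in LSD1 KO libraries, while the groups overlapped in the other 7 genes tested. PKP1 had 0 to 9 counts and DSG3 had 5 to 32 counts per library. Each panel has its own scale.

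PKP3 (ENSG00000184363; chromosome 11 from 392596 to 404908, plus strand, GRCh38.p14) encodes plakophilin 3, the plakophilin found in most epithelia. It was at 59.5, 85.7 and 68.9 CPM in WT replicates 1, 2 and 3 and at 47.3, 19.7 and 41.4 CPM in LSD1 KO replicates 1, 2 and 3. All LSD1 KO libraries were below all WT libraries, and LSD1 KO replicate 2 was the lowest of the 6. The means were 71.4 ± 13.3 CPM (SD, n = 3) and 36.1 ± 14.5 CPM (SD, n = 3), a ratio of 0.506. The log2 fold change was -0.98 with a standard error of 0.31, an unadjusted p of 0.0123 and a q value of 0.9995 from edgeR. DESeq2 gave an unadjusted p of 0.0015 and a q value of 0.291. An exact two-sided permutation test gave p = 0.1, the smallest that 3 libraries against 3 allow. Of all genes tested, 3.51% lay below WT in LSD1 KO libraries without overlap, and PKP3 was the 1 desmosome gene that did.

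Libraries carrying the same replicate number resembled each other across the transcriptome, and a second fit held the replicate number as a block. It called 1.60% of the genes tested and again none of the 8 desmosome genes (2 with an unadjusted p under 0.05, PKP3 and DSP, beside 13.4% of all genes). In this fit the log2 fold change of PKP3 was -1.04 (standard error 0.29) with a q value of 0.178 (edgeR). DESeq2 with the block gave -1.06 (standard error 0.51), an unadjusted p of 0.0377 and a q value of 0.383. Within the pairs of libraries with the same number, PKP3 was lower in LSD1 KO cells in 3 of 3, by log2 differences of -0.33, -2.09 and -0.73 for pairs 1, 2 and 3. The difference was therefore largest in pair 2. When pair 2 was left out, the fit with the block gave a smaller log2 fold change of -0.55 (standard error 0.12) with a q value of 0.0057. It called 5.85% of genes and 1 desmosome gene, PKP3. With 2 pairs left, the spread of a single gene is poorly measured and is largely borrowed from other genes. This q value is therefore not stronger evidence than that over all pairs. The call of PKP3 thus depended on the fit, and its log2 fold change was between -1.41 and -0.55 in the 16 alternative fits.

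**Figure D2:**
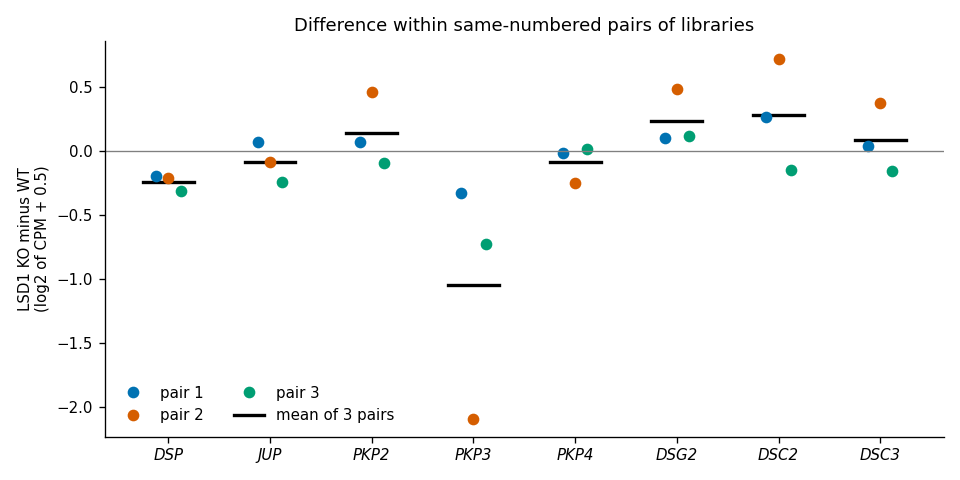
Difference between LSD1 KO and WT within each pair of libraries with the same replicate number (log2 of CPM + 0.5), for the 8 desmosome genes tested, with the mean of the 3 pairs as a bar. PKP3 lies below 0 in every pair, at -0.33, -2.09 and -0.73, DSP lies between -0.31 and -0.20, and DSG2 lies between 0.10 and 0.49.

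The other plakophilins did not share this pattern. PKP2 (ENSG00000057294; chromosome 12 from 32790755 to 32896777, minus strand), the plakophilin also known for its part in heart muscle junctions, was at 34.6, 34.8 and 40.1 CPM in WT replicates 1, 2 and 3 and at 36.3, 48.0 and 37.4 CPM in LSD1 KO replicates. LSD1 KO replicate 2 was here the highest library, and the groups overlapped. The log2 fold change of PKP2 was 0.15 (standard error 0.17). In PKP2, 12.9% of the 31-base sequences of its transcripts also occur in transcripts of other genes on the same strand, so part of its counts depends on how Salmon divided shared reads.

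PKP4 (ENSG00000144283; chromosome 2 from 158456952 to 158681429, plus strand), which is found at adherens junctions as well as desmosomes, was at 95.1, 93.1 and 98.6 CPM in WT replicates and at 93.9, 78.0 and 99.7 CPM in LSD1 KO replicates. Only LSD1 KO replicate 2 stood below the WT libraries, and the log2 fold change was -0.08 (standard error 0.16). PKP1 (ENSG00000081277; chromosome 1 from 201283506 to 201332989, plus strand), a plakophilin of stratified epithelia, had 0, 2 and 0 counts in WT replicates and 0, 2 and 9 counts in LSD1 KO replicates. Apart from LSD1 KO replicate 3, these counts did not pass the floor of 3 counts, which corresponded to 0.0994 to 0.114 CPM, so no fold change is given.

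Per kilobase of canonical transcript, PKP3 made up 42.3%, 51.7% and 44.2% of the summed plakophilin level in WT replicates and 36.7%, 19.8% and 32.5% in LSD1 KO replicates. Its mean share was 46.0 ± 4.96% (SD, n = 3) in WT and 29.7 ± 8.77% (SD, n = 3) in LSD1 KO libraries, without overlap between the groups. PKP4 had mean shares of 38.1 ± 3.53% and 46.8 ± 1.93%, and PKP2 had 15.8 ± 1.66% and 23.5 ± 7.52%. These shares add to 100% in each library, so a lower share of PKP3 raises the others. They used the same values as the comparison of PKP3 above and were not tested.

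**Figure D3:**
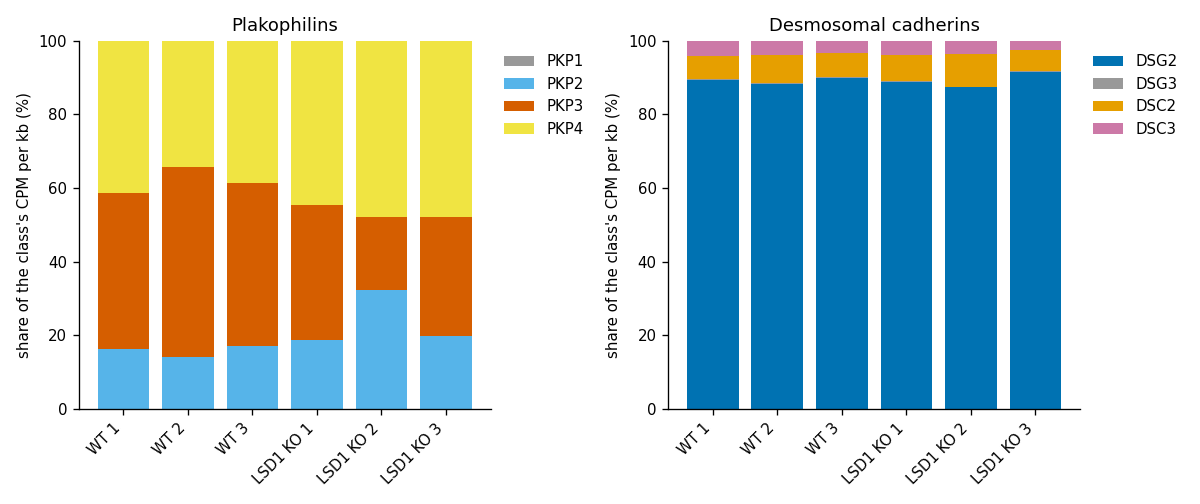
Share (%) of each gene in the summed CPM per kilobase of canonical transcript of the 4 plakophilins and of the 4 desmosomal cadherins, in each library. The share of PKP3 was 42.3% to 51.7% in WT and 19.8% to 36.7% in LSD1 KO libraries, whereas DSG2 held 87.4% to 91.6% of the cadherin level in all 6 libraries.

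JUP (ENSG00000173801; chromosome 17 from 41754609 to 41786711, minus strand) encodes plakoglobin, the close relative of beta-catenin that joins desmosomes and adherens junctions. It was at 206, 333 and 313 CPM in WT replicates and at 216, 313 and 265 CPM in LSD1 KO replicates. Replicate 1 was the lowest library in both groups, and the groups overlapped over most of their range. The means were 284 ± 68.3 CPM and 265 ± 48.2 CPM (SD, n = 3 each), with a log2 fold change of -0.10 (standard error 0.23).

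DSP (ENSG00000096696; chromosome 6 from 7541671 to 7586714, plus strand) encodes desmoplakin, which links the plaque to keratin filaments. It was at 303, 202 and 336 CPM in WT replicates 1, 2 and 3 and at 264, 175 and 271 CPM in LSD1 KO replicates 1, 2 and 3. Replicate 2 was the lowest library in both groups, and each LSD1 KO library was below the WT library with its number while the groups overlapped. The means were 281 ± 69.7 CPM and 236 ± 53.7 CPM (SD, n = 3 each), with a log2 fold change of -0.25 (standard error 0.25). With the replicate block the log2 fold change was -0.24 with a standard error of 0.083 and a q value of 0.266 from edgeR. The differences in the 3 pairs were -0.20, -0.21 and -0.31, a narrow range beside that of PKP3.

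The desmosomal cadherins lie together on chromosome 18. DSC3 (from 30989365 to 31042742, minus strand), DSC2 (from 31058840 to 31102421, minus strand), DSG3 (from 31447741 to 31478702, plus strand) and DSG2 (from 31498177 to 31549008, plus strand) follow each other in that order. DSG2 (ENSG00000046604), the desmoglein of simple epithelia, was at 358, 219 and 296 CPM in WT replicates 1, 2 and 3 and at 384, 306 and 320 CPM in LSD1 KO replicates. Each LSD1 KO library was above the WT library with its number, by log2 differences of 0.10, 0.49 and 0.11, and the groups overlapped. The log2 fold change was 0.21 (standard error 0.21), and 0.23 (standard error 0.10; q value 0.380 from edgeR) with the replicate block. Without WT replicate 2, the lowest library, the log2 fold change was 0.04.

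DSC2 (ENSG00000134755), the desmocollin found most widely in epithelia, was at 55.2, 40.8 and 47.3 CPM in WT replicates and at 66.4, 67.5 and 42.6 CPM in LSD1 KO replicates. LSD1 KO replicates 1 and 2 were above all WT libraries and LSD1 KO replicate 3 was not, with a log2 fold change of 0.30 (standard error 0.22), which was 0.17 without LSD1 KO replicate 2. Another gene on the same strand overlaps exons of DSC2, and 5.99% of the 31-base sequences of DSC2 transcripts occur in other genes. DSC3 (ENSG00000134762), which is more abundant in basal layers of stratified epithelia, was at 22.2, 12.95 and 14.1 CPM in WT replicates and at 22.8, 17.0 and 12.6 CPM in LSD1 KO replicates. Replicate 1 was the highest library in both groups, and the log2 fold change was 0.09 (standard error 0.29). DSG3 (ENSG00000134757), the desmoglein of skin and oral epithelium, had 13, 9 and 32 counts in WT replicates and 5, 10 and 9 counts in LSD1 KO replicates. WT replicate 3 held the highest value, and the counts of DSG3 were too low for the edgeR test over all 6 libraries, with or without the block. DSG3 was tested after pair 2 was left out, with a log2 fold change of -1.56 (standard error 0.67) and a q value of 0.253 (edgeR with the block), and by DESeq2 over all 6 libraries, with -1.10 (standard error 0.78) and an unadjusted p of 0.160.

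Read over pairs, 2 of the 8 desmosome genes tested, DSP and PKP3, were lower in LSD1 KO cells in 3 of 3 pairs, where 17.5% of all genes were. DSG2 was the 1 desmosome gene higher in 3 of 3 pairs, where 18.8% of all genes were. These counts are close to the background and are no result about the desmosome genes as a set.

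Several desmosome genes differed with the replicate number of the library. In a test of the replicate number with the group held in the model, 4 of the 8 were called at a q value under 0.1 (edgeR), namely DSP (q value 0.0058), JUP (0.0143), DSC3 (0.0224) and DSG2 (0.0401). As 41.2% of all genes passed the same test, this share is near the background. Both replicate 2 libraries were lowest for DSP, at a mean log2 deviation from the group mean of -0.42 against 0.17 and 0.26 for replicates 1 and 3. JUP ran differently, with deviations of -0.35, 0.26 and 0.10 for replicates 1, 2 and 3. DSC3 was highest in replicate 1, at 0.44, as was DSG2, at 0.26. The range over replicate numbers was larger than the difference between genotypes for 7 of the 8 desmosome genes, all but PKP3, as it was for 87.2% of all genes tested. For PKP3 the range over numbers was 0.37 and the difference between genotypes 1.05 on the log2 scale. This range averages the WT and LSD1 KO library of each number. For PKP3, replicate 2 was the highest WT library (85.7 CPM) and the lowest LSD1 KO library (19.7 CPM), so its deviations partly cancelled. The small range for PKP3 therefore does not mean that its libraries varied little within a group.

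**Figure D4:**
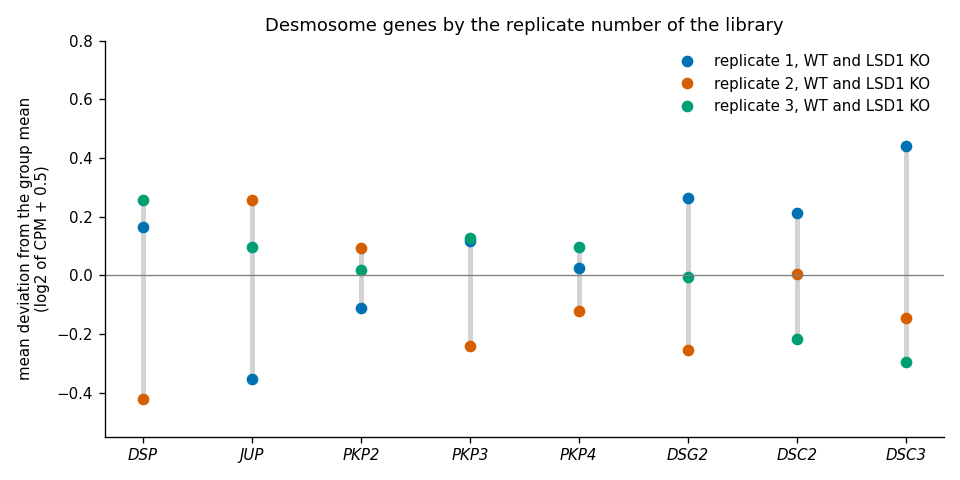
Mean deviation from the group mean (log2 of CPM + 0.5) of the WT and LSD1 KO libraries with each replicate number, for the 8 desmosome genes tested, with a grey bar from the lowest to the highest number. DSP is lowest in replicate 2 (-0.42), JUP is lowest in replicate 1 (-0.35), and DSC3 (0.44) and DSG2 (0.26) are highest in replicate 1.

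To order the genes by level, CPM was divided by transcript length. In WT cells JUP was the highest, at 81.0 ± 19.5 CPM per kilobase of canonical transcript (SD, n = 3), ahead of DSG2 at 51.1 ± 12.3. DSP followed at 28.9 ± 7.19 CPM per kilobase, PKP3 at 25.3 ± 4.72 and PKP4 at 20.8 ± 0.604. The WT libraries of JUP and DSG2 overlapped on this scale, as did those of DSP and PKP3 and those of PKP3 and PKP4, so these neighbours were not separated. PKP2 (8.63 ± 0.742 CPM per kilobase), DSC2 (3.87 ± 0.587) and DSC3 (2.16 ± 0.665) were lower, each without overlap with its neighbour, and DSG3 (0.113 ± 0.068) and PKP1 (0.0047) were at the bottom. In LSD1 KO cells PKP3 was at 12.8 ± 5.16 CPM per kilobase, below PKP4 at 19.7 ± 2.45.

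The scale mattered for DSC2, whose canonical transcript has 12331 bases and a coding length of 2703 bases. Per kilobase of coding length DSC2 was at 17.7 ± 2.68 CPM and above PKP2 at 14.5 ± 1.25, with overlapping libraries, while the order of the other genes was kept. Among the cadherins, DSG2 held 89.2 ± 0.773% of the summed level in WT and 89.3 ± 2.12% in LSD1 KO libraries per kilobase of transcript (SD, n = 3 each). Per kilobase of coding length these shares were 78.2 ± 1.46% and 78.1 ± 3.95%.

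**Figure D5:**
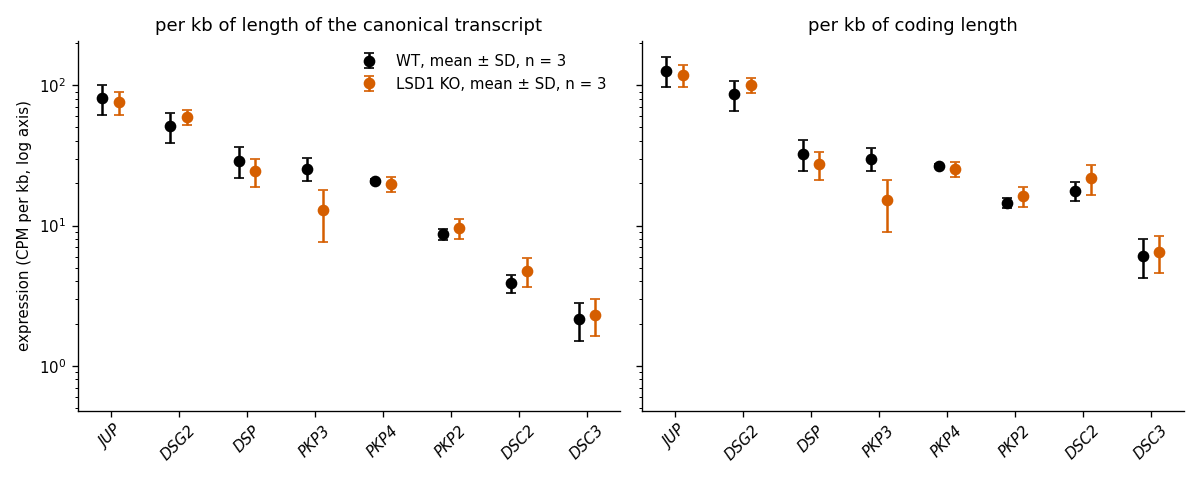
Mean expression (CPM per kilobase, log axis) with SD over 3 libraries for the 8 desmosome genes tested in WT and LSD1 KO cells, per kilobase of canonical transcript (left) and of coding length (right). JUP and DSG2 are highest on both scales, at 81.0 and 51.1 CPM per kilobase of transcript in WT cells, and PKP3 is the gene with the widest gap between the groups (25.3 against 12.8).

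The genes whose pattern over the 6 libraries was most like that of DSP were PTPRG, MTA1-DT and PDPK1, with a root mean square difference of 0.0433, 0.0494 and 0.0618 in centred log2 CPM. PTPRG, a receptor tyrosine phosphatase, was at 61.3, 40.4 and 68.0 CPM in WT replicates and at 52.5, 37.6 and 56.8 CPM in LSD1 KO replicates. No desmosome gene was as close to DSP, and the nearest was PKP4 at 0.240. The closest genes were picked from far more genes than the desmosome genes. This order therefore cannot show whether DSP runs with other desmosome genes. The closest pair among the 8 desmosome genes was DSC2 and DSC3 (0.204), followed by DSG2 and DSC3 (0.223). PKP3 was the farthest from its nearest other desmosome gene, DSP, at 0.573. Values were centred but not scaled to each gene's spread, so a gene that varied more tends to lie farther away. This distance is therefore no separate result on PKP3.

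RefSeq promoter sequences (GRCh38.p14) were matched for 8 of the 10 genes, all but PKP2 and PKP3. In the 250 bases before the annotated start, CACCTG, the E-box read by SNAI and ZEB repressors, was searched on both strands. DSP, JUP and DSG2 each held 2 matches, whereas 17.5% of 35116 promoters held at least 1 and 2.53% held 2 or more. All matches in the 8 windows are shown with their flanks, so that their number, direction and spacing can be read, and they are written 5′ to 3′ on the strand of the gene with the E-box in capitals (CAGGTG is the same site read on the other strand).
DSP, chr6:7541481-7541510, plus strand, 178 bases before the start: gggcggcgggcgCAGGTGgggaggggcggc
DSP, chr6:7541574-7541603, plus strand, 85 bases before the start: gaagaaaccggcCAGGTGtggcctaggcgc
JUP, chr17:41786008-41786036, minus strand, 54 and 43 bases before the start: tggcccCACCTGccgagCAGGTGagcgca
DSG2, chr18:31497933-31497962, plus strand, 232 bases before the start: acgtcacggtccCAGGTGcgagtgcgagcg
DSG2, chr18:31498049-31498078, plus strand, 116 bases before the start: tcgcggcggccaCACCTGgagccgcgcctt
The starts used for JUP, PKP4 and DSC2 lie inside the spans of these genes given above. In DSP, JUP, PKP1, PKP4 and DSC3, stretches of the window also occur in annotated transcripts of the same gene. These windows are therefore not upstream of every transcript. In JUP the 2 matches lie close together in opposite directions, and in DSP both read CAGGTG on the strand of the gene. AACCGGTT, the grainyhead-like motif, CCGTTA, an OVOL motif, and TATAAA, the TATA box, were found in 0 of the 8 windows and in 0.117%, 2.45% and 10.7% of all promoters. These windows were searched for these letters only, on both strands, and a match is a description of the sequence. The windows of DSP and DSG2 held 33 and 26 CG dinucleotides and that of DSG3 held 4, against a median of 11 over all promoters. JUP held 13, PKP1 17, PKP4 22, DSC2 19 and DSC3 18. G and C made up 78%, 66% and 75.2% of the windows of DSP, JUP and DSG2. The shares over all promoters were not matched for base composition, so they cannot show that the E-box is enriched here.

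Of 38 other genes of desmosomes, adherens junctions, intermediate filaments and desmosome regulation, 31 were tested and 0 had a q value under 0.1 in edgeR without the block, where KRT18 was the 1 gene with an unadjusted p under 0.05. DESeq2 called 0 of them, with 2 at an unadjusted p under 0.05. With the replicate block 1 of 31 was lower and 0 were higher, beside 1.60% of all genes. At an unadjusted p under 0.05 the block gave 9 of the 31, beside 13.4% of all genes, of which KRT19, VIM, DES, PRKCA, CAV1 and SRC had positive and KRT18, CDH1 and EGFR negative log2 fold changes. The gene called was EGFR, a receptor tyrosine kinase that acts on desmosomal proteins, at 182, 119 and 219.6 CPM in WT replicates and 126, 79.7 and 173 CPM in LSD1 KO replicates. Each LSD1 KO library of EGFR was below the WT library with its number, and EGFR reached -0.48 on the log2 scale with the block (standard error 0.090; q value 0.0582 from edgeR), and its q value without the block was 0.9995. With the block EGFR was no longer called when pair 1 (q value 0.101) or pair 3 (q value 0.149) was left out.

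The genes set in the plan as paralogs or partners of desmosome genes (CTNNB1, CDH1, PERP, KRT8 and KRT18) were not called with or without the block over all 6 libraries. KRT18, a keratin of simple epithelia, was at 396, 667 and 461 CPM in WT and 375, 348 and 354 CPM in LSD1 KO replicates. These groups did not overlap, but the log2 fold change of KRT18 was -0.50 (standard error 0.22) with a q value of 0.9995, and 0.230 with the block, from edgeR. KRT18 was called with the block after pair 1 was left out (q value 0.0581). Its partner KRT8 overlapped between groups, with a log2 fold change of -0.19 (standard error 0.25). CDH1, the cadherin of adherens junctions, differed by -0.34 on the log2 scale (standard error 0.25), and CTNNB1, which encodes beta-catenin, differed by -0.10 (standard error 0.18). PERP, a membrane protein of desmosomes, differed by 0.05 (standard error 0.31). DSG1, DSG4, DSC1, CDSN, KRT5, KRT14, KRT20 and CDH2, most of them genes of stratified epithelia, were under 1 CPM in every library.

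The epithelial marker EPCAM was lower in LSD1 KO libraries, as PKP3 was, at 191, 248 and 173 CPM in WT replicates and 134, 77.6 and 101 CPM in LSD1 KO replicates. Its q value was 0.0788 with the replicate block and 0.668 without it (edgeR), and 0.000263 with the block after pair 2 was left out. DESeq2 gave EPCAM a q value of 0.0516 without the block and 0.168 with it, so its call depended on the fit. LSD1 KO replicate 2 was the lowest library for EPCAM as for PKP3. Of the 5 epithelial markers tested, 4 had negative log2 fold changes and 1 a positive one. The latter, the keratin gene KRT19, named after its values were seen, was at 548, 1156 and 789 CPM in WT replicates and 905, 1460 and 966 CPM in LSD1 KO replicates. Each LSD1 KO library of KRT19 was above the WT library with its number, with a q value of 0.123 with the block and 0.9995 without it (edgeR), and 0.0033 with the block after pair 2 was left out. COL1A1, the fibroblast marker above 1 CPM, was higher in LSD1 KO libraries with the block (q value 0.0628, edgeR), and its q value without the block was 0.9995. The part of EPCAM, of COL1A1 and of CD68 in the level of PKP3 was not tested. The labels do not state that counting used strand, so reads of DSP, PKP4 and DSG2 and of their antisense genes cannot be told apart, but DSP-AS1, PKP4-AS1 and DSG2-AS1 had at most 25 counts in any library. PKP3 and JUP shared none of their 31-base transcript sequences with another gene.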

How the data were processed

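RNA-seq libraries of 3 WT and 3 LSD1 KO HCT116 cells were grouped by their labels. The authors trimmed the reads with Trimmomatic 0.39, quantified them with Salmon (1.4.0 per the submitters' processing notes) against GENCODE release 36 on GRCh38, and deposited expected counts per gene in whole numbers, before any scaling for depth. Symbols were matched for 58395 of 60240 genes. The paper's ChIP-seq, methylation and qPCR experiments were not analysed here.

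Counts were compared with edgeR 4.0.16 in R 4.3.3 (TMM, filterByExpr, quasi-likelihood test, Benjamini-Hochberg adjustment over all 17672 genes tested, q value under 0.1). CPM used effective library sizes. Depth set the floor, and the floor of 3 counts covers counting error only. Single genes were also compared with an exact permutation test on log2 of CPM + 0.5. The replicate numbers, taken from the labels' titles, were treated as pairing because deviations from the group means correlated across genes at r = 0.553, 0.553 and 0.404 for the same number and -0.516 to 0.0454 for different numbers.

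All desmosome genes were named, with KDM1A, pathway genes called with or without the replicate block, and the genes nearest to DSP. The plan also set 5 paralogs or partners of desmosome genes (CTNNB1, CDH1, PERP, KRT8 and KRT18). EPCAM, KRT19, COL1A1 and CD68, from the marker list, and VIM, KRT23, DES, PRKCA, CAV1 and SRC were singled out after their values were seen. The genes and lists were chosen with earlier results of these data known. Lengths came from the canonical transcripts of GENCODE v44lift37, whose coding length was used in place of RefSeq protein lengths, and positions and promoters from RefSeq (GRCh38.p14). PECAM1 was not matched by symbol. The alternatives were other size factors, filters and thresholds, DESeq2 1.42.0, the replicate block and leaving out each library. The steps were tested on simulated data. Tables and plots used Python 3.11.15 and matplotlib 3.10.9.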

Additional observations from a re-analysis of the deposited data

How the results depend on the processing

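The number of genes called depended on the fit. Beside 1 gene without the replicate block, edgeR called 2 genes with library totals only, 114 with every gene with a total above 0, 282 with the replicate block and 1055 with the block after pair 2 was left out, and DESeq2 called 95. Leaving out each library gave 1 to 26 genes, the most without LSD1 KO replicate 2. A further 3 fits were chosen after the data were seen, namely the block without pair 1 (428 genes), the block without pair 3 (198) and DESeq2 with the replicate block (593). Of the desmosome genes, 0 were called in the fit without the block and 1, PKP3, with every gene with a total above 0 (q value 0.0678) and with the block without pair 1 (0.0267), pair 2 (0.0057) or pair 3 (0.0480). The fits with a pair left out rest on 2 pairs, so their q values lean on the spread of other genes. The replicate block alone changed no desmosome gene's call. Of the other pathway genes, 0 were called without the block and 1 with it (EGFR, lower). The 2 called with the block differed with the pair left out, namely KRT18 (lower) and PRKCA (higher) without pair 1, EGFR (lower) and KRT19 (higher) without pair 2, and VIM and DES (both higher) without pair 3. DESeq2 with the block called 3, EGFR (lower), KRT19 and PRKCA (both higher).

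In all, 9 of 128 log2 fold changes of desmosome genes changed sign, all of uncalled genes. With the block and without pair 2, PKP2 was at -0.0345, DSC3 at -0.0719, DSG2 at 0.09 and DSC2 at 0.04. The fits that left out each library had no block, so the replicate numbers were no longer balanced between the groups. In these fits JUP ranged from -0.29 to 0.0241, PKP2 from -0.0043 to 0.23 and PKP4 from -0.16 to 0.0003. DSC3 ranged from -0.15 to 0.37, DSG2 from 0.04 to 0.39 and DSC2 from 0.17 to 0.49. Over the same fits PKP3 ranged from -1.23 to -0.70, the latter without LSD1 KO replicate 2, and DSP from -0.44 to -0.09. The cause was not tested. Counts were not uniform across the genes, as PKP1 and DSG3 had at most 32 counts in a library.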

Other observations

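LSD1 KO replicate 2 held the lowest level of PKP3 (19.7 CPM), and other genes of the lists also stood apart in this library. These genes were singled out after their values were seen, and no test was made. VIM, the intermediate filament protein vimentin, was at 97.7 CPM in LSD1 KO replicate 2 and at 26.3 to 40.3 CPM in the other 5 libraries. The keratin gene KRT23 was at 0.258 CPM against 3.48 to 5.79 CPM, and DES, which encodes desmin, was at 10.0 CPM against 0.718 to 3.45 CPM.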
